A study of Mus musculus with 383 samples.

Results

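Receptors for metabolic hormones were described in single nuclei of the dorsal motor nucleus of the vagus, the brainstem nucleus whose cholinergic neurons send parasympathetic output to the gut and other viscera. The 7 genes were taken by name from the 29779 genes of the count table: Lepr for leptin, Ghsr for ghrelin, Mc3r and Mc4r for the melanocortins, Insr for insulin, Igf1r for insulin-like growth factor 1 and Ghr for growth hormone. All 7 were in the table. They were read in the 316 of 383 nuclei (82.5%) that had at least 1000 genes with a read.

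The nuclei came from male C57BL/6 mice carrying Chat-IRES-Cre, in which Cre recombinase is made from the choline acetyltransferase locus. At 10 weeks of age the mice were given 100 nL of AAV9-DIO-H2b-mCherry in this nucleus, and tissue was collected 16 days later and pooled. Nuclei with both mCherry and a DNA dye were sorted singly and sequenced with Smart-seq2, which copies transcripts along their length. Every nucleus therefore shared the genotype, the virus and the surgery, there was no untreated group, and the sort selected nuclei by a label that depends on Chat-driven Cre. The labels name no animal, so all nuclei together counted as 1 sample: values were compared between sets of nuclei by fixed sizes of difference, with no test and no p-value.

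Leptin, from fat, acts through Lepr, a cytokine receptor that signals through the kinase Jak2 and the transcription factor Stat3. Ghsr responds to ghrelin from the stomach and couples to Gq proteins, while Mc3r and Mc4r couple to Gs proteins and respond to melanocortin peptides cut from the product of Pomc, with Agrp as an antagonist. Insr and Igf1r are related tyrosine kinase receptors that act through Irs adaptors and Akt kinases, and Ghr signals through Jak2 and Stat5. Mc4r is known to be expressed in cholinergic autonomic motor neurons, and in the dorsal vagal complex leptin and melanocortins are known to act on feeding and autonomic output.

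The 5′ flanks of a broadly found and of sparser receptor genes are shown, as the 7 genes ranged from nearly every nucleus to 1 nucleus. RefSeq windows (GRCm38.p6) before RefSeq gene starts were used for 5 of the 7 genes (Mc3r, Ghsr, Lepr, Igf1r and Ghr). Printed sequence ends before the first annotated exon. Printed here, 5′ to 3′ on the gene's strand with CpG dinucleotides in capitals, are Igf1r (chr7:67952007-67952256, plus strand), Lepr (chr4:101717157-101717403, plus strand) and Ghsr (chr3:27371101-27371350, plus strand).
Igf1r: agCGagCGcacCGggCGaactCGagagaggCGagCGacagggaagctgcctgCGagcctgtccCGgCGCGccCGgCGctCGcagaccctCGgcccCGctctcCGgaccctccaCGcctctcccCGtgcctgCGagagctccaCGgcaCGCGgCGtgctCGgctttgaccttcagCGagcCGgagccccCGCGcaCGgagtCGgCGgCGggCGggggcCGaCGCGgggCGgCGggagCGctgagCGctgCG
Lepr: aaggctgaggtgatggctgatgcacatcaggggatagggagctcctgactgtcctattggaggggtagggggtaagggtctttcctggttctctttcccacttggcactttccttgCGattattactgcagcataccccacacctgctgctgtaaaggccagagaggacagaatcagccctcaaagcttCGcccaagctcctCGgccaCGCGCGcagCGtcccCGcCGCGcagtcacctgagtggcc
Ghsr: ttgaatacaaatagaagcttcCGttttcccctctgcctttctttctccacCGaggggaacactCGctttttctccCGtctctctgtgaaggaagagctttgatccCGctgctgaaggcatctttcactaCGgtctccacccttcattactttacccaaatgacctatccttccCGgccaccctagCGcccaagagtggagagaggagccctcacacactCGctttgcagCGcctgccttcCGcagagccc
The Igf1r window held 42 CpG and 77.6% G or C, and 99.1% of 32851 such windows over all genes held fewer CpG. The Lepr and Ghsr windows held 10 and 11 CpG, against a median of 6 over all windows. Of the windows not printed, those of Ghr held 17 and 8 CpG and that of Mc3r 12. No relation between CpG number and how widely a gene was found is read from these windows. The motif GGGCGG, searched on both strands, was in the Igf1r window and in 32.7% of all windows, and in neither of the printed Lepr and Ghsr windows. A second Lepr window (chr4:101717656-101717905), not printed, held it, as did the Ghr window with 17 CpG. TATAAA, also on both strands, was in none of the 3 printed windows and in 12.4% of all.

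Depth among the retained nuclei had its median at 1440075 reads and 11234.5 genes, and the shallowest had 1590 reads. Chat itself was found in 96.2% of them. The median share of nuclei per marker was 98.7% for neuronal, 92.6% for cholinergic motor and 84.8% for visceral motor markers. For other neurons it was 10.3% (somatic motor), 17.7% (inhibitory), 18.0% (glutamatergic), 21.5% (serotonergic) and 41.8% (catecholaminergic). It was 31.0% for oligodendrocytes, 9.81% for their precursors, 25.3% for astrocytes, 11.4% for microglia, 18.0% for vascular and 10.4% for ependymal cells, and none of these markers was at 0. Where sets of nuclei were compared, each nucleus was thinned to 500000 reads, which left out 21 nuclei and kept 295. Intervals are exact 95% Clopper-Pearson intervals that cover counting error only. They treat every nucleus as independent, which may not hold for some nuclei with consecutive numbers and similar receptor levels.

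The growth factor receptors were found in nearly all nuclei, the leptin receptor in most, Mc4r in fewer, and Ghsr and Mc3r in few. Igf1r was found in 313 of 316 nuclei (99.1%, 97.3 to 99.8), Insr in 307 (97.2%, 94.7 to 98.7) and Ghr in 290 (91.8%, 88.2 to 94.6). Lepr was found in 219 nuclei (69.3%, 63.9 to 74.3) and Mc4r in 129 (40.8%, 35.4 to 46.5). Ghsr was found in 15 nuclei (4.75%, 2.68 to 7.71) and Mc3r in 1 nucleus (0.316%, 0.01 to 1.75). Neighbours in this order had intervals apart, except for Igf1r and Insr, whose intervals overlapped. At 500000 reads the Lepr share was 57.6% (51.8 to 63.3), below its unthinned interval, while the Mc4r share was 40.3% (34.7 to 46.2).

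The reads behind these shares differed between the genes. In reads per 1000000 reads of the nucleus (RPM), Igf1r ranged from 0 over a median of 177 to 663 (all 316 nuclei). Insr ranged from 0 over a median of 119 to 424. The 32 nuclei with the most reads of each gene held 29.6% of Igf1r and 28.3% of Insr reads. Ghr ranged from 0 over a median of 354 to 4906, with quartiles of 53.3 and 869, and 95 nuclei had at least 1000 Ghr reads. Lepr ranged from 0 over a median of 3.11 to 399, with 67 nuclei at 1 to 4 reads and 41 nuclei at 100 reads or more. Mc4r ranged from 0, which was also its median, to 338. For Lepr and Mc4r, the 32 highest nuclei held 59.5% and 71.6% of all reads. Reads of these genes were thus concentrated in fewer nuclei than those of Insr and Igf1r. Some nuclei with consecutive numbers had similar levels, while others, such as 231 and 232, did not. Nuclei 245 and 246 had 46.7 and 49.4 RPM of Lepr, 619 and 602 of Igf1r, and 517 and 472 of Ghr. Nuclei 229 and 230 had 20.1 and 21.3 RPM of Mc4r, and 1436 and 1320 of Ghr. Nuclei 253 and 254 had 453 and 462 RPM of Igf1r, and 2231 and 2023 of Ghr. Similar levels were also seen in 205 and 206, 213 and 214, 221 and 222, and 237 and 238. Nuclei 261 and 262, 277 and 278, and 285 and 286 were further such pairs. The members of each of these pairs fell in the same cluster. Whether such pairs were independent nuclei was not tested, and their members were counted separately throughout.

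**Figure D1:**
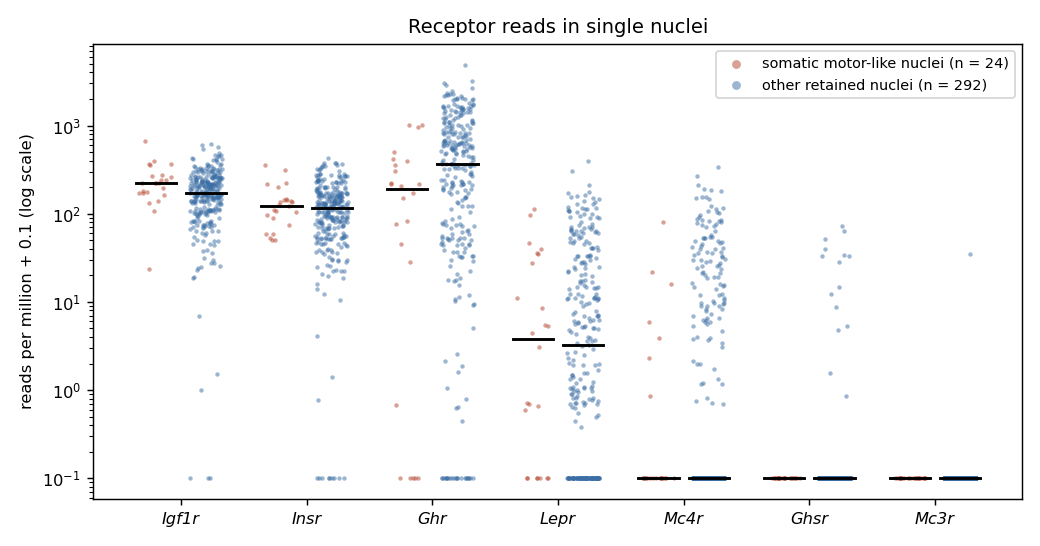
RPM (log scale, 0.1 added) of each receptor gene in each of 24 somatic motor-like and 292 other retained nuclei. Points are nuclei, black bars are medians, and points on the lowest line are nuclei with 0 reads; Igf1r and Insr have medians of 177 and 119 over all nuclei, Ghr spreads up to 4906, and Mc3r shows 1 nucleus.

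Levels of different genes were compared per length, and the order depended on the length used. Summed over retained nuclei and per kb of exon, Ghr had 67.6 RPM per kb, Igf1r 11.9, Insr 9.39, Mc4r 6.48, Lepr 3.54, Ghsr 0.27 and Mc3r 0.05. Nuclear RNA also holds introns, and whether intronic reads were counted was not given in the sources used here. Per kb of the whole annotated span, Mc4r came first with 6.48, ahead of Ghr with 2.30, Insr with 0.82, Igf1r with 0.71, Lepr with 0.25, Ghsr with 0.18 and Mc3r with 0.05. The annotation (GENCODE vM21, GRCm38) gives Mc4r (chromosome 18, 66857704 to 66860506, minus strand) and Mc3r (chromosome 2, 172248492 to 172251114, plus strand) no intron. Ghr spans 265.7 kb (chromosome 15, 3317760 to 3583492, minus strand) and Lepr 97.9 kb (chromosome 4, 101717404 to 101815352, plus strand). Igf1r spans 280.8 kb (chromosome 7, 67952827 to 68233668, plus strand), Insr 157.6 kb (chromosome 8, 3122061 to 3279617, minus strand) and Ghsr 6.66 kb (chromosome 3, 27371351 to 27378010, plus strand). Of the 7 spans only that of Insr overlapped other annotated genes, Vmn2r-ps88 and Gm16180, both on the opposite strand with 0 shared exon bases.

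Ghsr reads were rare but not single reads. Of its 15 nuclei, 13 had at least 5 reads, and the number of Ghsr reads ran from 1 over a median of 30 to 133. The Ghsr nucleus with the most reads, 133, also had 439 Lepr reads and 3389 Ghr reads, and no Mc4r read. The single Mc3r nucleus had 58 Mc3r reads, 89 Mc4r reads, 1 Lepr read, 176 Insr reads, 369 Igf1r reads and no Ghr read. One nucleus gives no comparison for Mc3r.

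A first clustering, built without the 7 genes or genes of their pathways, held 1 cluster of 24 nuclei led by the somatic motor markers Calcb and Chodl, here called somatic motor-like. The other 10 clusters, 292 nuclei, had more visceral than somatic markers, but 1 of them had the astrocyte gene Gfap among its 10 leading genes, so they are called the other nuclei. No receptor differed by 20 percentage points or more between the 24 somatic motor-like and 271 other thinned nuclei. Over 18288 genes found in 5 to 95% of thinned nuclei, 3.56% were higher and 6.04% lower by that limit.

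In somatic motor-like nuclei 6 of 24 had Mc4r (25.0%, 9.77 to 46.7), against 113 of 271 other nuclei (41.7%, 35.8 to 47.8), a difference of -16.7 points with overlapping intervals. Its mean level was 4.33 RPM in somatic motor-like nuclei, against 19.3 RPM in other nuclei. For Ghr the shares were 79.2% (57.8 to 92.9) in somatic motor-like and 91.9% (88.0 to 94.8) in other nuclei. Its level had a median of 185 RPM and a highest value of 1000 RPM in somatic motor-like nuclei, against 384 and 5028 RPM in other nuclei, and the ranges overlapped. By mean level, Mc4r was 0.22 times and Ghr 0.41 times that of the other nuclei, a fall of 2-fold or more that 27.4% of 20750 genes showed. Lepr was found in 62.5% of somatic motor-like and 57.2% of other nuclei. Mean levels in somatic motor-like and other nuclei were 137 and 130 RPM for Insr, and 240 and 192 RPM for Igf1r. Ghsr was found in 0 of 24 somatic motor-like nuclei, with an upper limit of 14.2%, against 4.80% of other nuclei, a difference not detectable with 24 nuclei. The median share per marker in somatic motor-like and other nuclei was 16.7% and 32.5% for oligodendrocytes, 25.0% and 25.3% for astrocytes and 16.7% and 18.2% for vascular cells, and the part of these in the results was not tested.

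A second clustering divided the other nuclei into 11 clusters of 13 to 42 nuclei, again without the receptor and pathway genes. Lepr, Mc4r and Ghr differed by 40 points or more between their highest and lowest cluster, and the remaining 4 receptors did not. By the same limit 33.5% of 18183 genes passed, counted over genes found in 5 to 95% of nuclei. Of the receptors only Lepr (57.2%), Mc4r (41.7%) and Ghr (91.9%) were within these shares in the other nuclei, and all of them passed. Insr (99.3%), Igf1r (100%), Ghsr (4.80%) and Mc3r (0.369%) were outside, so 3 of 7 cannot be compared with 33.5%. No excess over all genes is read from 3 receptors. Ghr was the receptor whose level differed most between clusters. Its mean was 1486 RPM in the 13 thinned nuclei of cluster 11, 1293 in cluster 7, 984 in cluster 2, 942 in cluster 6 and 824 in cluster 1. It was 445 RPM in cluster 3, 392 in cluster 4, 279 in cluster 9, 245 in cluster 5, 85.3 in cluster 10 and 33.2 in the 19 nuclei of cluster 8. In single nuclei Ghr ran from 416 to 2524 RPM in cluster 11 and from 0 to 380 RPM in cluster 8, with no overlap between these clusters. Ghr was found in every thinned nucleus of 6 clusters, and in 57.9% (33.5 to 79.7) of cluster 8 and 60.0% (32.3 to 83.7) of cluster 10. A mean at least 4 times higher in the highest than in the lowest cluster, a rule added after the data were seen, was found for 66.5% of 20728 genes. Neighbouring clusters in this order overlapped in the values of their nuclei.

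**Figure D2:**
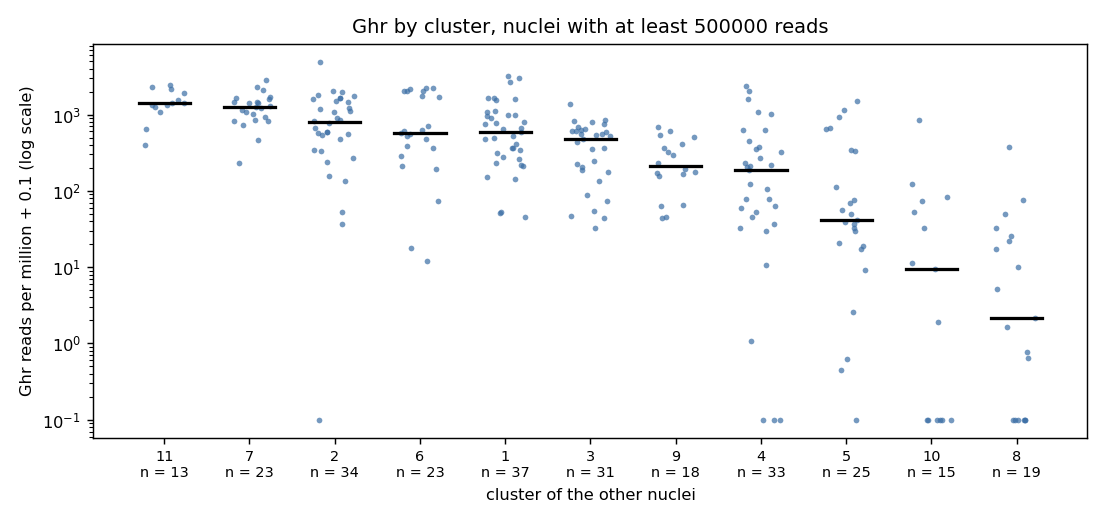
Ghr RPM (log scale, 0.1 added, all reads of each nucleus) in single nuclei of the 11 clusters of other nuclei, ordered by median; points are nuclei with at least 500000 reads and bars are medians. Nuclei of cluster 11 and cluster 8 do not overlap, with thinned means of 1486 and 33.2.

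Mc4r was most frequent in cluster 7, at 17 of 23 nuclei (73.9%, 51.6 to 89.8), and in cluster 11, at 9 of 13 (69.2%, 38.6 to 90.9). It was least frequent in cluster 9, at 3 of 18 (16.7%, 3.58 to 41.4), and the intervals of clusters 7 and 9 were apart. Cluster 9 was at the other end for Lepr, at 15 of 18 nuclei (83.3%, 58.6 to 96.4), with 4 of 13 (30.8%, 9.09 to 61.4) in cluster 11 as the lowest, and these intervals overlapped. By mean level, Lepr was highest in cluster 9 with 60.2 RPM and lowest in cluster 8 with 6.11 RPM. Mc4r was highest in cluster 1 with 51.3 RPM, where 17 of 37 nuclei had a read, and lowest in cluster 9 with 4.44 RPM. Insr and Igf1r means differed 1.56-fold and 2.05-fold between their highest and lowest cluster. Of the 13 thinned Ghsr nuclei, 5 were among the 25 of cluster 5 (20.0%, 6.83 to 40.7), and none was in clusters 3, 6, 7, 8, 10 or 11. Cluster 3 had the highest mean share of astrocyte markers (49.0%), vascular markers (43.9%) and each other glial list, against 71.0% for cholinergic motor markers. It was the lowest cluster for mean Igf1r level, with 139 RPM, and for Insr share, at 96.8%, and was at neither end by share of Lepr or Mc4r or by mean Ghr level. The part of these markers was not tested. Each of the 3 calls was lost under some settings: with 7 clusters, at the coarser resolution of 0.5 or with 20 neighbours, Ghr alone passed the limit. Lepr was under it at 1000000 reads (39.5 points), Mc4r when 5 reads were required (37.0 points), and Ghr when nuclei with 500 genes were admitted (22.2 points).

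**Figure D3:**
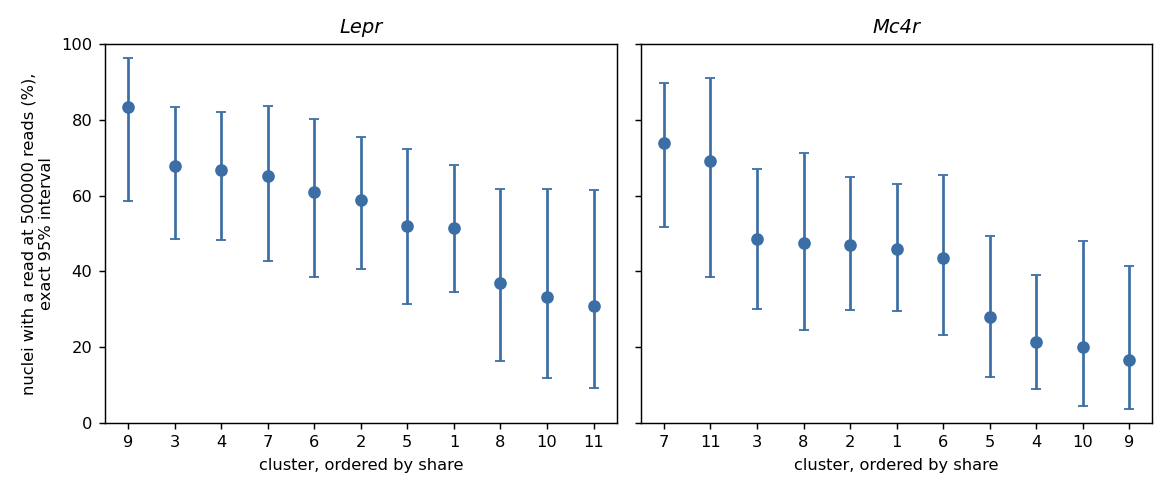
Share of thinned nuclei with a read of Lepr (left) and Mc4r (right) in the 11 clusters of other nuclei, each panel ordered by share; points are shares and bars exact 95% intervals. Cluster 9 is highest for Lepr (83.3%) and lowest for Mc4r (16.7%).

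Lepr and Mc4r were found in the same nucleus less often than the product of their shares. At 500000 reads, 50 nuclei had both genes, against 68.6 from the product of the shares, while 120 had Lepr alone, 69 Mc4r alone and 56 neither. Mc4r was found in 50 of 170 nuclei with Lepr (29.4%, 22.7 to 36.9) and in 69 of 125 nuclei without Lepr (55.2%, 46.0 to 64.1), a difference of -25.8 points with intervals apart. Among 18287 genes, 0.0109% were lower by 20 points or more in nuclei with Lepr and 0.104% higher, and Mc4r had the lowest difference of all of them. The mean Mc4r level was 11.5 RPM in nuclei with Lepr and 27.1 RPM in nuclei without it. The median number of genes was 10382.5 in nuclei with Lepr and 9969 in nuclei without. Averaged over each list, serotonergic markers were found in 20.4% of nuclei with and 12.5% without Lepr, markers of ependymal cells in 21.3% and 14.8%, of oligodendrocytes in 34.0% and 28.0%, and of astrocytes in 28.8% and 23.0%. These 4 lists differed most, and the part of the markers and of the number of genes in the result was not tested. Without cluster 3 the difference was -27.3 points.

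Taken the other way, Lepr was found in 42.0% (33.0 to 51.4) of 119 nuclei with Mc4r and in 68.2% (60.8 to 75.0) of 176 without. The mean Lepr level was 14.0 RPM in nuclei with Mc4r and 33.9 RPM in nuclei without. By the same limit 0.0656% of 18287 genes were lower with Mc4r and 0.312% higher. Lower by more than Lepr was Npffr2, the neuropeptide FF receptor gene, with a difference of -29.3 points, and next after Lepr was Qrfpr with -24.3 points. Layn, Calb2 and Met were highest, with differences of 42.4, 41.2 and 32.7 points. These genes were chosen after their values were seen.

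The share of nuclei with Mc4r fell over the lower steps of Lepr reads at 500000 reads and was level over the upper steps. It was 55.2% of 125 nuclei at 0 Lepr reads, 41.8% of 55 nuclei at 1 to 4 reads, 23.4% of 47 nuclei at 5 to 19 reads and 23.5% of 68 nuclei at 20 reads or more. At least 20 Mc4r reads were found in 21.6%, 9.09%, 6.38% and 10.3% of nuclei at these steps. The labels number the nuclei, in blocks of 96 numbers here, whose relation to plates the labels do not give. The difference was beyond 20 points in 3 of 4 blocks. Mc4r was found in 38.1% of nuclei with and 68.6% without Lepr in block 1, in 22.2% with and 57.5% without in block 2, and in 27.3% with and 56.0% without in block 3. In block 4 it was 29.2% with and 32.0% without, a difference of -2.83 points. The intervals with and without Lepr were apart in block 2 (10.1 to 39.2 and 40.9 to 73.0) and overlapped in blocks 1, 3 and 4. The share of nuclei with Mc4r itself was 51.9% in block 1, 40.8% in block 2, 37.7% in block 3 and 30.1% in block 4, with overlapping intervals, and that of Lepr was 54.5%, 47.4%, 63.8% and 65.8% in blocks 1 to 4. The part of the blocks in the pooled difference was not tested beyond these values. Block 3 holds all the pairs of similar nuclei named above, such as 245 and 246, and 229 and 230, which were counted separately here. Cluster 6 holds 205 and 206, 245 and 246, and 253 and 254. If the members of a pair were not independent, the intervals of block 3 and of the clusters holding pairs are too narrow. Within the clusters of other nuclei, Mc4r was less frequent with than without Lepr in 10 of 11, and in cluster 11 it was found in 3 of 4 nuclei with and 6 of 9 without. In somatic motor-like nuclei it was found in 4 of 15 with and 2 of 9 without. Intervals with and without Lepr overlapped in these nuclei and in every cluster. Thinned to 1000000 reads, which 261 nuclei reached, the difference was -18.6 points, under the limit, and unthinned it was 35.6% with against 52.6% without.

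**Figure D4:**
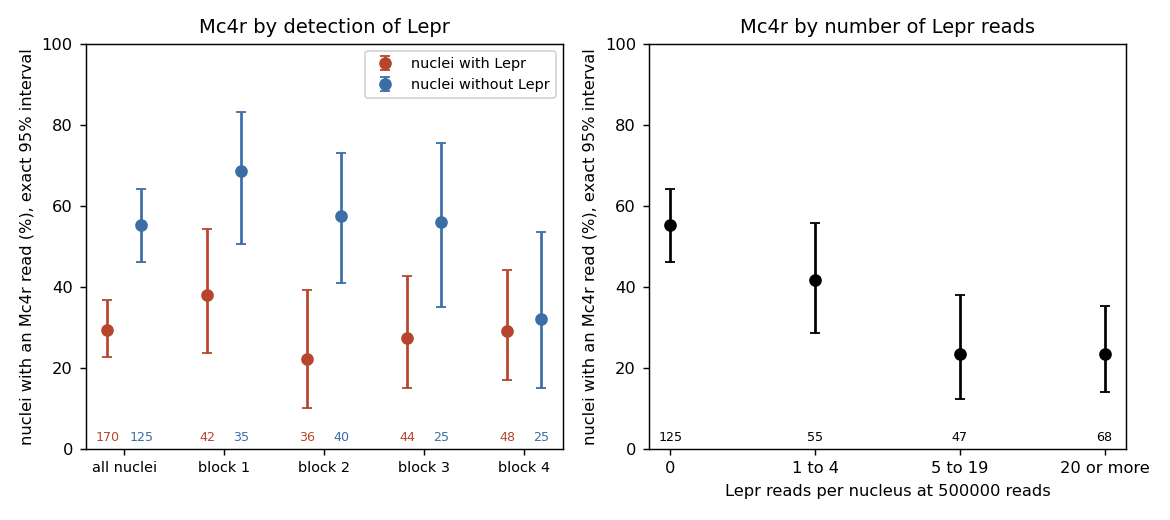
Share of thinned nuclei with an Mc4r read (y axis, percent), left in nuclei with and without Lepr over all nuclei and in each block of 96 nucleus numbers, right by the number of Lepr reads; bars are exact 95% intervals and small numbers are nuclei. The share with Lepr is lower in all nuclei (29.4% against 55.2%) and in blocks 1 to 3, and 29.2% against 32.0% in block 4. Of the blocks only block 2 has intervals apart.

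Ghsr nuclei were mostly Lepr nuclei. Lepr was found in 12 of 13 thinned nuclei with Ghsr (92.3%, 64.0 to 99.8) and in 158 of 282 nuclei without it (56.0%, 50.0 to 61.9), a difference of 36.3 points with intervals apart. Mc4r was found in 2 of 13 nuclei with Ghsr (15.4%, 1.92 to 45.4) and in 41.5% (35.7 to 47.5) without, with overlapping intervals. With 13 nuclei such differences were more frequent over all genes, 4.39% being higher and 3.63% lower by 20 points or more. Without thinning, 13 of the 15 Ghsr nuclei had a Lepr read, and the Lepr difference was 18.2 points.

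Of the 21 pairs of receptors, 18 had at least 10 nuclei with and without 1 of the genes, and the 3 pairs among Lepr, Mc4r and Ghsr passed the limit of 20 points. Thinned to 1000000 reads none of them passed it. Lepr was found in 59.3% (53.2 to 65.3) of 268 nuclei with Ghr and 40.7% (22.4 to 61.2) of 27 without, and Mc4r in 41.8% (35.8 to 47.9) with and 25.9% (11.1 to 46.3) without. Neither difference reached 20 points, which 5.22% of genes did upward and 0.421% downward, and nuclei with Ghr also had more genes, a median of 10291 against 9000 without. Averaged over each list, cholinergic motor markers were found in 83.7% of nuclei with and 71.0% without Ghr. Visceral motor markers were at 68.7% and 58.5%, oligodendrocyte markers at 32.5% and 20.7%, and astrocyte markers at 27.2% and 18.5%. The part of these markers in the Lepr and Mc4r differences was not tested. The mean Ghr level was 832 RPM in nuclei with Mc4r and 465 RPM in nuclei without, and their medians were 646 and 226 RPM. It was 624 RPM in nuclei with Lepr and 598 RPM in nuclei without.

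Insr, Igf1r and Ghr were found together in 266 of 295 thinned nuclei (90.2%). Most nuclei then differed in whether Lepr or Mc4r was added. Lepr without Mc4r or Ghsr beside these 3 made up 100 nuclei (33.9%), Mc4r without Lepr or Ghsr 62 (21.0%), both 48 (16.3%) and neither 45 (15.3%). In all, 165 nuclei (55.9%) had 4 of the 7 receptors, 60 had 5, 59 had 3 and 11 had 2.

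Genes that mark other sets of these nuclei were crossed with the receptors. A nucleus can carry several of these genes, so the sets overlap. Mc4r was most frequent with Calb2, which encodes the calcium-binding protein calretinin: 72 of 106 nuclei with Calb2 had Mc4r (67.9%, 58.2 to 76.7), against 47 of 189 without (24.9%, 18.9 to 31.7). This was a difference of 43.1 points, and 0.339% of genes were higher by 20 points with Calb2. With Npy2r, the receptor for peptide YY and neuropeptide Y, Mc4r was found in 50.3% (42.4 to 58.2) of 163 nuclei, against 28.0% (20.6 to 36.5) of 132 without, where 0.869% of genes were higher. With Nos1, for neuronal nitric oxide synthase, it was 42.3% of 267 nuclei against 21.4% of 28 without, with overlapping intervals, where 4.14% of genes were higher.

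The opioid peptide genes divided Lepr and Mc4r in opposite directions. In 54 nuclei with Penk, which encodes proenkephalin, Lepr was found in 81.5% (68.6 to 90.7), against 52.3% (45.8 to 58.7) of 241 nuclei without. Mc4r was found in 20.4% (10.6 to 33.5) of nuclei with Penk, against 44.8% (38.4 to 51.3) without. By the same limit 0.317% of genes were higher and 0.213% lower with Penk. In 38 nuclei with Pdyn, which encodes prodynorphin, Lepr was found in 78.9% (62.7 to 90.4), against 54.5% (48.2 to 60.7) of 257 without. Mc4r was found in 21.1% (9.55 to 37.3) of nuclei with Pdyn, against 43.2% (37.0 to 49.5) without, and 0.984% of genes passed in each direction. With Grp, for gastrin-releasing peptide, Mc4r was found in 16.7% (5.64 to 34.7) of 30 nuclei, against 43.0% (37.0 to 49.2) of 265 without, where 1.33% of genes were lower. With Vip, for vasoactive intestinal peptide, it was 21.4% of 28 nuclei against 42.3% of 267 without, with overlapping intervals, where 0.618% of genes were lower. For the remaining 7 of 14 genes (Cck, Cckar, Sst, Cartpt, Nppb, Th and Atf3) no receptor share differed by 20 points, a limit that between 0.0328% and 5.74% of all genes passed in a direction.

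Mean levels were also compared across these 14 genes, by a rule of 2-fold added after the data were seen. Of 70 comparisons over Lepr, Mc4r, Insr, Igf1r and Ghr, 7 were higher and 5 lower by 2-fold or more, and none of the 12 concerned Insr or Igf1r. Ghr averaged 940 RPM in nuclei with Npy2r and 209 RPM in nuclei without, with medians of 732 and 72 RPM, where 4.39% of 20749 genes were higher. It averaged 1046 RPM with Cartpt, for the peptide CART, and 377 RPM without, with medians of 862 and 214 RPM, where 3.72% of genes were higher. With Cck, for cholecystokinin, it averaged 221 RPM, against 661 RPM without, with medians of 43 and 432 RPM, where 16.3% of genes were lower. Just under 2-fold, Ghr averaged 1102 RPM with Grp and 558 RPM without, and 897 RPM with Calb2 and 454 RPM without.

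The Lepr level was 57.6 RPM with Penk and 18.7 RPM without, and 59.4 RPM with Pdyn and 20.9 RPM without, where 7.69% of genes were higher with Penk and 5.54% with Pdyn. With Cck it was 10.7 RPM, against 27.7 RPM without. The Mc4r level was 36.1 RPM with Calb2 and 8.01 RPM without (5.53% of genes higher), 25.9 RPM with Npy2r and 8.47 RPM without, and 28.9 RPM with Cckar, the cholecystokinin A receptor gene, and 13.5 RPM without (3.11% higher). It was lower with Penk at 5.26 RPM, against 21.0 RPM without (6.94% lower), with Vip at 5.21 RPM, against 19.5 RPM without, and with Cck at 5.50 RPM, against 19.7 RPM without (16.3% lower for each of Vip and Cck). Median Mc4r levels were 14 RPM with Calb2 and 2 RPM with Npy2r, against 0 without each. They were 0 with and without Cckar, Penk, Vip and Cck. The Mc4r share was 40.9% with and 40.1% without Cckar, and 43.8% with and 39.9% without Cck. Median Lepr levels were 35 RPM with and 2 RPM without Penk, 39 and 2 RPM for Pdyn, and 2 and 4 RPM for Cck. The median number of genes was 10388 with Npy2r and 9975 without, and 10493.5 with Calb2 and 10119 without.

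**Figure D5:**
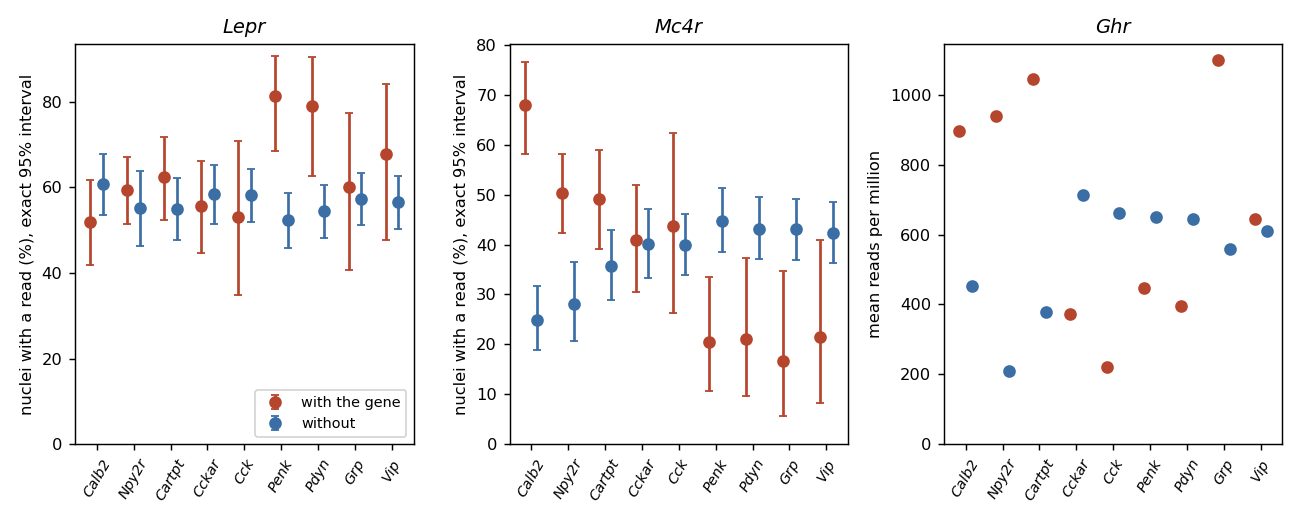
Share of thinned nuclei with a read of Lepr (left) or Mc4r (middle), and mean Ghr RPM (right), in nuclei with and without each of 9 genes; bars are exact 95% intervals. Mc4r is higher with Calb2 (67.9% against 24.9%) and lower with Penk (20.4% against 44.8%), Lepr is higher with Penk (81.5% against 52.3%), and Ghr is higher with Npy2r (940 against 209).

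Genes most like each receptor were ranked by Spearman correlation of log2(RPM + 1) over 295 nuclei and 18797 genes, as a description. For Ghr they were Adamts2 (rho 0.67), Syt10 (0.65) and Rgs7bp (0.64), and for Mc4r they were Calb2 (0.49), Dcc (0.47) and Layn (0.43). For Lepr they were Mid1 (0.36), Kcnq5 (0.33) and Ntsr1 (0.32). No gene reached 0.3 with Insr or Igf1r. Between receptors rho was -0.28 for Lepr and Mc4r and 0.31 for Ghr and Mc4r. These nuclei share 1 pooled preparation.

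The lists of pathway genes differed in how many of their genes were found in most nuclei, with 18 of 24 for insulin at one end and 3 of 14 for insulin-like growth factors at the other. Of all genes with a read, 32.4% were found in over 50% of thinned nuclei and 30.3% in under 5%, with a median share of 17.6%. For leptin signalling, 7 of 10 listed genes were in over 50% of nuclei and 2 in under 5%, with a median of 72.9%. The ligand gene Lep was found in 1.69%, Stat3 in 97.6%, Jak2 in 90.2%, and Socs3, the feedback inhibitor induced by leptin, in 4.75%. For ghrelin 5 of 8 were in over 50%, with Ghrl at 6.78% and Leap2, the antagonist ligand of Ghsr, at 0.68%, while Gnaq was found in every nucleus. Of 12 measured melanocortin genes, 6 were in over 50%, with a median of 34.1%. The share was 100% for Atrnl1 and 5.76% for Kcnj13, at the ends of the list. Pomc was found in 10.5%, and Mrap2, whose product is an accessory protein of Mc4r, in 89.5%. Agrp was found in 55.3% with a mean of 9.14 RPM, but its annotated span of 70.7 kb overlaps 7 other genes, among them Ripor1 and Ctcf, and their reads may not be separable. The span of Ghrl overlaps Gm26982 and Gm44033, both on the opposite strand.

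For insulin 18 of 24 listed genes were in over 50% of nuclei, with a median of 82.9%. Ins1 was found in 1.36% and Ins2 in 21.4%, the kinase gene Gsk3b in every nucleus, and the adaptor gene Irs4 in 3.39%. The annotated span of Ins2 is 64.7 kb, against 1.18 kb for Ins1. Where in that span the Ins2 reads lay was not examined. For insulin-like growth factors 3 of 14 were in over 50% and 6 in under 5%, with a median of 9.32%. Igf1 was found in 24.4%, Igf2 in 0 of 295 with an exact upper bound of 1.24%, and Igf2r, which takes up Igf2, in 76.3%. For growth hormone 2 of 7 were in over 50%, with Gh in 1.36%, Ghrh in 16.6% and Stat5b in 93.6%. In nuclei with against those without the list's own receptor, counted for Lepr, Ghsr, Mc4r and Ghr, 1 of the 25 listed genes found in 5% to 95% of nuclei passed 20 points. It was Socs2, a feedback inhibitor of growth hormone signalling, in 61.6% of nuclei with Ghr and 40.7% without. Of all genes 5.22% were higher by this much with Ghr, where 1 of 5 listed genes was, and the nuclei with Ghr had more genes (10291 against 9000), so nothing is read from this count.

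Between somatic motor-like and other nuclei, 6 of the 48 pathway genes found in 5% to 95% of nuclei were lower by 20 points or more (12.5%, against 6.04% of all genes) and 0 higher (against 3.56%). The lists were not tested against other genes, and nothing particular to them is read from these counts. Leprot, which encodes a protein that affects the surface level of leptin receptors, was found in 29.2% of somatic motor-like and 58.3% of other nuclei, and its relative Leprotl1 in 66.7% and 91.1%. Cish was found in 4.17% and 33.6%, Mrap2 in 70.8% and 91.1%, the insulin receptor substrate gene Irs2 in 62.5% and 83.8%, and Pappa2, for a protease of insulin-like growth factor binding proteins, in 29.2% and 58.7%. The median number of genes at 500000 reads was 9817 in somatic motor-like and 10234 in other nuclei, and its part in these differences was not tested.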

How the data were processed

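The deposited counts are whole reads per gene and nucleus, not normalised by the authors. The submitters' processing notes list GRCm38 as the build and, with no roles, Seurat 3, edgeR, Picard, STAR and bcl2fastq as tools. Which annotation was counted, how, and with what strand setting is not given in the sources used here.

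Nuclei with at least 1000 genes with a read were retained, and a gene was found in a nucleus with at least 1 read. Shares and summed reads per 1000000 reads (RPM) were computed in Python 3.11.15. Each nucleus with at least 500000 reads was thinned to that number by random draw. Clusters were built with scanpy 1.11.5 (2000 variable genes, 15 components, 10 neighbours, Leiden resolution 1) without the receptor, pathway, mitochondrial and ribosomal protein genes. No doublet caller was run on singly sorted nuclei. Reads carried no molecular identifiers, so intervals cover counting error only. Differences of 20 points in share, or 40 points across clusters of at least 8 nuclei, were called by size, beside the share of all genes found in 5 to 95% of nuclei that passed. Pathway ligands were always named, other pathway genes by the highest and lowest share or a difference of 20 points (Jak2, Socs3, Mrap2 and Irs4 were added for their roles after their values were seen), and likeness from a rho of 0.3. The members, lists and limits were chosen with earlier results of these data known, and the scripts were tested on simulated data. The labels name the vagal motor nucleus as tissue, yet the protocol speaks of the SCN, and this was not resolved. Some pathway genes that the naming rule picks are not reported here. Reads per nucleus ranged from 159 to 4699420 over 383 nuclei.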

Additional observations from a re-analysis of the deposited data

Results flagged for a closer look

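Reads of 3 receptors appeared in the 67 nuclei left out for having under 1000 genes, which had a median of 2328 reads. Insr was found in 7 of them (10.4%, 95% interval 4.30 to 20.3), with up to 414 reads in 1 nucleus. Igf1r was found in 6 (8.96%, 3.36 to 18.5), with up to 2 reads, and Ghr in 4 (5.97%, 1.65 to 14.6), with 1 read each. Each share is above the 4.48% that a count of 0 allows (3 of 67), which is what marked it, but that limit lies within the interval of all 3. Lepr, Ghsr, Mc3r and Mc4r were found in 0 of 67.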

How the results depend on the processing

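Of the shares, counts of receptors and counts of pairs, 84 alternatives left the value within its interval or within 1.5 times, and 18 moved it. Shares and counts have no direction to reverse. Direction was assessed only for the differences among Lepr, Mc4r and Ghsr, whose signs stayed the same over their alternatives. The Lepr share was 57.0% with at least 2 reads required, 48.1% with 5 reads and 57.6% when thinned. With 5 reads required Mc4r was at 34.2%, Igf1r at 96.2% and Ghr at 87.3%. With 500 genes per nucleus Insr was at 93.6%, Igf1r at 96.0% and Ghr at 88.1%. Igf1r was at 100% with 2000 genes and when thinned, and Insr at 99.3% when thinned. Mc3r was at 0 without block 4, which holds its nucleus. Between somatic motor-like and other nuclei, 1 receptor (Mc4r) passed at 250000 reads. Among clusters, 1 receptor (Ghr) passed at resolution 0.5 and 1 (Ghr) with 20 neighbours, each with 7 clusters, while 2 passed at 1000000 reads (Mc4r and Ghr), 2 with 5 reads required (Lepr and Ghr) and 2 with 500 genes per nucleus (Lepr and Mc4r). Of the pairs, 0 passed at 1000000 reads and 1 without block 2, where Ghsr was left with fewer than 10 nuclei. The Mc4r difference between nuclei with and without Lepr ran from -31.5 to -17.0 points over its alternatives, at -27.3 points without cluster 3, an alternative chosen after the data were seen. Where no construction is given, the cause was not tested. No paired analysis was possible because the series is a single group with no test. Of the receptor shares, that of Lepr changed most when nuclei were thinned, from 69.3% to 57.6%. Animals could not be told apart.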
